A study of Rattus norvegicus with 6 samples.

Results

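Iron uptake, storage, export and heme recycling were followed through 9 genes of rat subchondral bone, the plate of bone and marrow beneath the cartilage of the knee joint. The genes were chosen by name, and all 9 had a row in the expression table, which holds 22050 annotated genes with values. The uptake genes are Tfrc (ENSRNOG00000001766), Steap3 (ENSRNOG00000049471), Slc11a2 (ENSRNOG00000019550) and Slc25a37 (ENSRNOG00000015495). Fth1 (ENSRNOG00000022619) and Ftl1 (ENSRNOG00000031506) serve storage, Slc40a1 (ENSRNOG00000003872) export, Hmox1 (ENSRNOG00000014117) heme breakdown and Tf (ENSRNOG00000030625) transport. The series asked which molecules link cold and arthritis by sequencing RNA from this tissue in rats kept cold or at normal temperature. Temperature, treatment, strain, age and sex are not stated for any of the 6 libraries (S10, S12, S13, S20, S21, S23) in the labels used here, so the libraries have no group and conditions were not compared. Values are given per library or as the lowest, the median and the highest, and the sources used here do not say whether each library is a different animal.

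Iron circulates in plasma bound to transferrin, the product of Tf. Cells take up the loaded protein through the transferrin receptor, the product of Tfrc. Inside the endosome a ferrireductase (Steap3) reduces the iron, a divalent metal transporter (Slc11a2, also called DMT1) carries it to the cytosol, and mitoferrin (Slc25a37) passes it into mitochondria. In marrow the main consumers are erythroblasts, which build it into heme. Ferritin, a shell of heavy (Fth1) and light (Ftl1) chains, stores what is not used, and ferroportin (Slc40a1) is the known iron exporter. Macrophages that digest old red cells open the heme ring with heme oxygenase 1 (Hmox1) and send the iron back to plasma through ferroportin.

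Total counts per library ran from 39990624 to 59200981. Values are FPKM (sequenced fragments divided by transcript length and by library size), a unit in which levels of different genes can be set side by side. The smallest count of a member was 901, for Steap3 in S10, and its exact 95% Poisson interval of 843 to 962 covers counting error only. Bone markers were present, with medians of 202 FPKM for Col1a1 and 439 FPKM for Bglap. Annotated genes whose median reached 1 FPKM are called expressed here. Of these 11625 genes 60.1% had their lowest FPKM in S10, so S10 stands apart from the other libraries. Scaling by trimmed mean of M-values (TMM) raised the median expressed gene in S10 by 0.34 log2 units and lowered it in S12 by 0.19, and TMM values are therefore given beside results for single members where S10 is an extreme.

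RefSeq promoter entries of the assembly GRCr8 were found for 5 of the 9 genes. The 250 bases before the start of Tfrc, Steap3 and Tf are shown because Tfrc and Steap3 were highest in the same library while Tf was highest in another. All lie on the minus strand and read 5′ to 3′, at chr11:81690319-81690568, chr13:33944357-33944606 and chr8:112695377-112695626.
Tfrc: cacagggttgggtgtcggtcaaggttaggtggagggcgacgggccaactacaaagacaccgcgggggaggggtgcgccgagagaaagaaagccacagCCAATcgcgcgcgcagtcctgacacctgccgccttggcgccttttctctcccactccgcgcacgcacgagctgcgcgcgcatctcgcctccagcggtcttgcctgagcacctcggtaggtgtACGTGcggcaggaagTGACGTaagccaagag
Steap3: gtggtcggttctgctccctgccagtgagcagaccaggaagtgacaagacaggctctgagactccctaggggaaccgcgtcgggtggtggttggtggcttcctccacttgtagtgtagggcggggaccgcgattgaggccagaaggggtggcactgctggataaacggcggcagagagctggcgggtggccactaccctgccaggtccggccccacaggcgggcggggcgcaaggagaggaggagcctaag
Tf: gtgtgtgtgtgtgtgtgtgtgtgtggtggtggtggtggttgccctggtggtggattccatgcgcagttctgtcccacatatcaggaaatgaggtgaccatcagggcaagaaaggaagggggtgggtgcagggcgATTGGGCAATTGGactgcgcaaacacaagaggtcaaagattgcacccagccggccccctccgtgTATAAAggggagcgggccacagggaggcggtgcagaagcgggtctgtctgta
Capitals mark matches, on either strand, to 6 motifs. The GATA motif was AGATAA with variants in which T replaces the first letter or G the last, and the hypoxia element core was ACGTG. The cyclic AMP element core was TGACGT and the C/EBP pattern was TTGCNNAA. The remaining motifs were the CCAAT box, searched by its name's letters, and the TATA box, searched as TATAAA. Tfrc held ACGTG, starting 31 bases before the start, TGACGT at 16 bases and CCAAT at 153 bases. Of 33469 promoter windows of the same length, 16.6% held ACGTG, 6.95% held TGACGT and 34% held CCAAT. Tf held TATAAA at 52 bases, which 12.9% of windows held. It also held a C/EBP match at 115 bases (9.22% of windows) that overlaps 2 matches to CCAAT, at 116 and 108 bases, all 3 as the reverse complement of the motif. Steap3 held none of the 6, and none of the 3 windows held a GATA match, which 27.0% of all windows did. These are letter matches and say nothing of binding.

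The ferritin heavy chain and transferrin genes had the highest transcript levels of the 9. Fth1 had a median of 1551 FPKM, above 99.7% of expressed genes, and Tf a median of 1299 FPKM, above 99.6%. Their ranges overlapped, with Fth1 the higher of the 2 in 4 of 6 libraries. Slc25a37 (144 FPKM), Tfrc (135 FPKM) and Hmox1 (132 FPKM) had nearly the same medians, and their ranges overlapped. Ftl1 (76.9 FPKM) was below Hmox1 in 6 of 6 libraries, although their ranges overlapped. Slc40a1 (46.1 FPKM) lay below the whole range of Ftl1, and Slc11a2 (20.8 FPKM) below that of Slc40a1. Steap3 was the lowest, with 11 FPKM, above 55.6% of expressed genes. It was below Slc11a2 in 6 of 6 libraries.

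**Figure D1:**
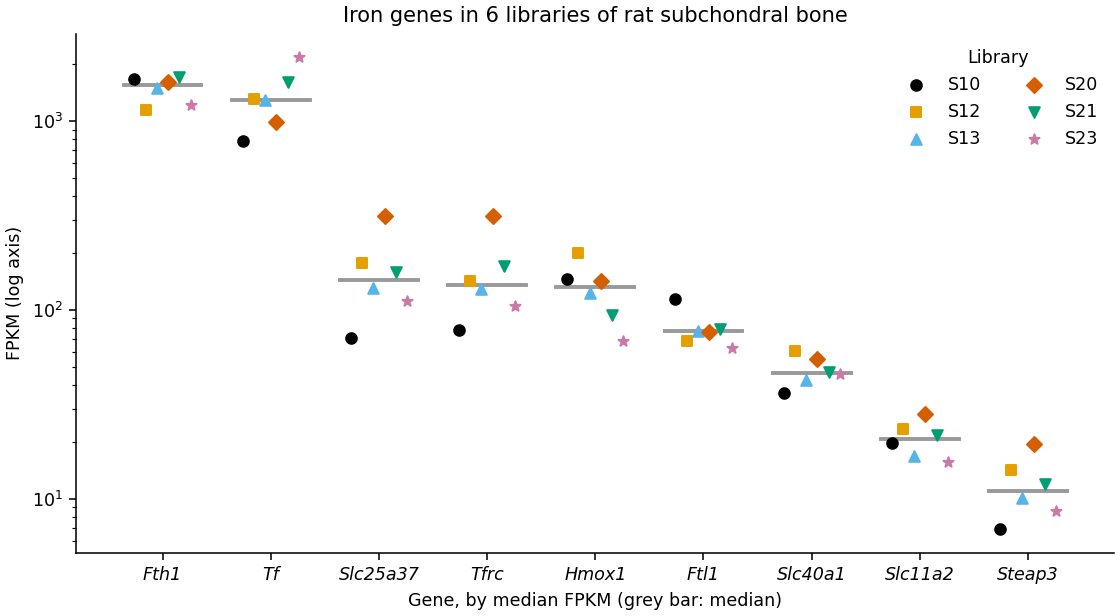
FPKM on a log axis of the 9 iron genes, ordered by median (grey bar), with 1 point for each of the 6 libraries. Fth1 and Tf lie far above the other 7 genes, S20 is the highest point of Slc25a37, Tfrc, Slc11a2 and Steap3, and S23 is the highest of Tf.

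The spread over the libraries was wide for 5 of the 9 genes. A gene was called wide at a range of 1 or more in log2(FPKM + 1), a scale that understates the spread of low genes. Slc25a37 (2.13), Tfrc (1.99), Hmox1 (1.52), Tf (1.47) and Steap3 (1.37) met this, against 36.6% of expressed genes. Ftl1 (0.85), Slc11a2 (0.81), Slc40a1 (0.72) and Fth1 (0.57) did not. The median range of the 9 was 1.37, and that of all expressed genes 0.83. The 5 were also wide with S10 left out, when 13.6% of expressed genes were. Without S20 the count was 4, since Steap3 had 0.95, and 30.1% of expressed genes were wide. A correction for gene length also left 4, with Steap3 at 0.93, against 19.8% of expressed genes. A common FPKM sum added Slc40a1 (1.04), when 52.7% of expressed genes were wide. A sum without globin rows added Slc11a2 (1.20), when 49.6% were. With 0.1 in place of 1 in log2(FPKM + 1), 5 of 9 were wide, and so were 48.6% of expressed genes. The margin over all genes thus depended on the setting. Under TMM scaling 7 of 9 were wide, the added genes being Fth1 (1.15) and Ftl1 (1.35), against 29.4% of expressed genes.

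**Figure D2:**
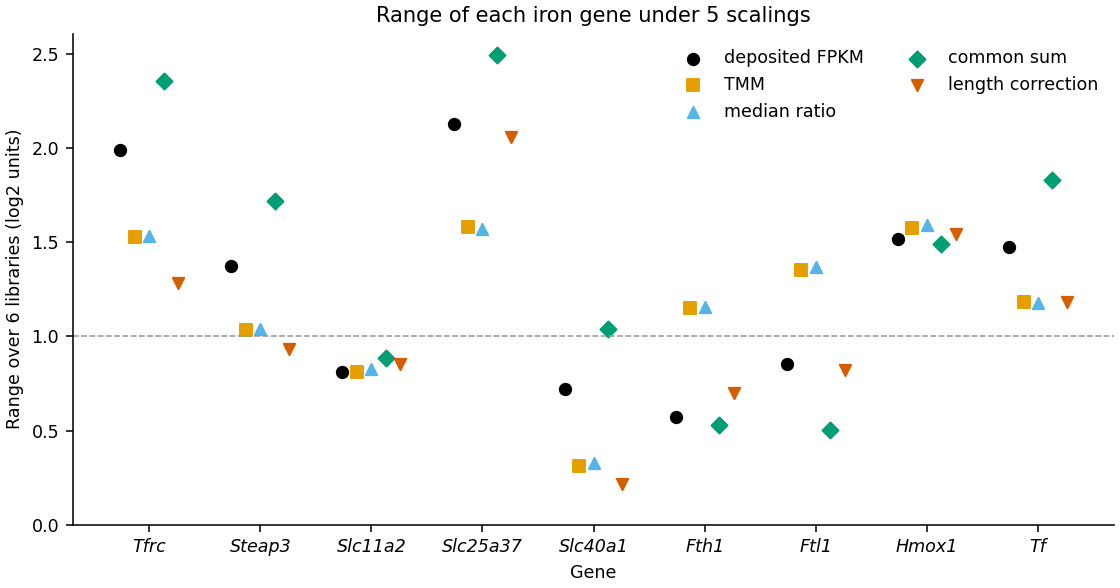
Range over the 6 libraries, in log2 units, of each gene under the deposited FPKM and 4 other scalings (1 point each, dashed line at 1). Slc25a37, Tfrc, Hmox1 and Tf lie above 1 under all 5, whereas Fth1 and Ftl1 pass 1 only under TMM and median-ratio scaling.

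Uptake genes shared their highest library. Tfrc had 313 FPKM in S20, 170 in S21, 142 in S12, 129 in S13, 104 in S23 and 78.2 in S10. S20 stood 4.0-fold above S10, and clear of S21, the next highest. After TMM scaling S20 was still the highest with 279 FPKM, the lowest was S23 with 96.4, and the fold was 2.90. Length correction narrowed the Tfrc range to 1.28, again with S20 highest and S23 lowest. Without S20 the range fell from 1.99 to 1.11, with S21 then the highest. Slc25a37, which feeds mitochondria, had 312 FPKM in S20, 178 in S12, 158 in S21, 131 in S13, 111 in S23 and 70.7 in S10. As with Tfrc, a single library stood well above the other 5. It kept S20 as highest and S10 as lowest under TMM (279 and 92.7 FPKM), and its range was 1.32 without S20.

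Steap3, the endosomal reductase, ranged from 6.90 FPKM in S10 through a median of 11 to 19.4 FPKM in S20. Under TMM it ran from 7.97 FPKM in S23 to 17.4 in S20, a range of 1.03. Slc11a2, the endosomal transporter, ranged less, from 15.6 FPKM in S23 through 20.8 to 28.1 FPKM in S20. Its order depended on scaling, since TMM moved its highest value to S10 (25.9 against 25.1 FPKM in S20). All 4 uptake genes were thus highest in S20 in the deposited values. So were 28.8% of expressed genes, and 23.5% were highest in S20 and lowest in S10, as Tfrc, Steap3 and Slc25a37 were.

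Most markers of red cell precursors shared the highest library of the uptake genes. Of 10 erythroid markers 9 had a row, and 7 of the 9 were highest in S20. The lowest library was S23 for 6 of the 9 (8.37% of expressed genes) and S10 for 3 (60.1%). Tfrc, Steap3 and Slc25a37 were instead lowest in S10 in the deposited values. The summed level of the 9 markers was 1596 FPKM in S23, 2884 FPKM in S10 and 3341 FPKM in S20. None of the 9 was at 0. Slc4a1, the band 3 anion exchanger, had 151 FPKM in S10 and 646 in S20, while Ahsp, the alpha-globin chaperone, was highest in S10 with 1748 FPKM. Alas2, the first enzyme of heme synthesis in erythroid cells, ranged from 396 FPKM in S23 to 931 in S20. The 4 globin rows followed another order, with 27.6% of counts in S10 and 10.4% in S23. The part of these markers in the Tfrc, Slc25a37 and Steap3 values was not tested. In bulk tissue, fewer cells of a type and less RNA per cell cannot be told apart.

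The shape of each gene over the libraries was compared with marker lists by the root mean square (RMS) difference between profiles centred on their medians, in log2 units. This is a description over 6 libraries, and all genes of a library share its depth and composition. Steap3 (0.14), Slc25a37 (0.28) and Tfrc (0.29) were nearest to the erythroid list of the 10 lists compared. Tf was nearest to the neutrophil list (0.25) and far from the erythroid list (0.74). Hmox1 was nearest to the macrophage list, but only at 0.41, with the osteoblast list at 0.42. Slc40a1, which varied little, was near to the endothelial (0.08), osteoblast (0.09) and macrophage (0.15) lists alike. Slc11a2, Fth1 and Ftl1 were nearest to the osteoblast list (0.20, 0.36 and 0.40), whose own range was 0.50. Small distances of flat genes from flat lists carry little information. Of the lists named here, the summed level was 35.7 to 45.1 FPKM for endothelium, and among the other lists it was 450 to 851 FPKM for osteoclasts and 8.08 to 24.9 FPKM for Schwann cells and oligodendrocytes.

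**Figure D3:**
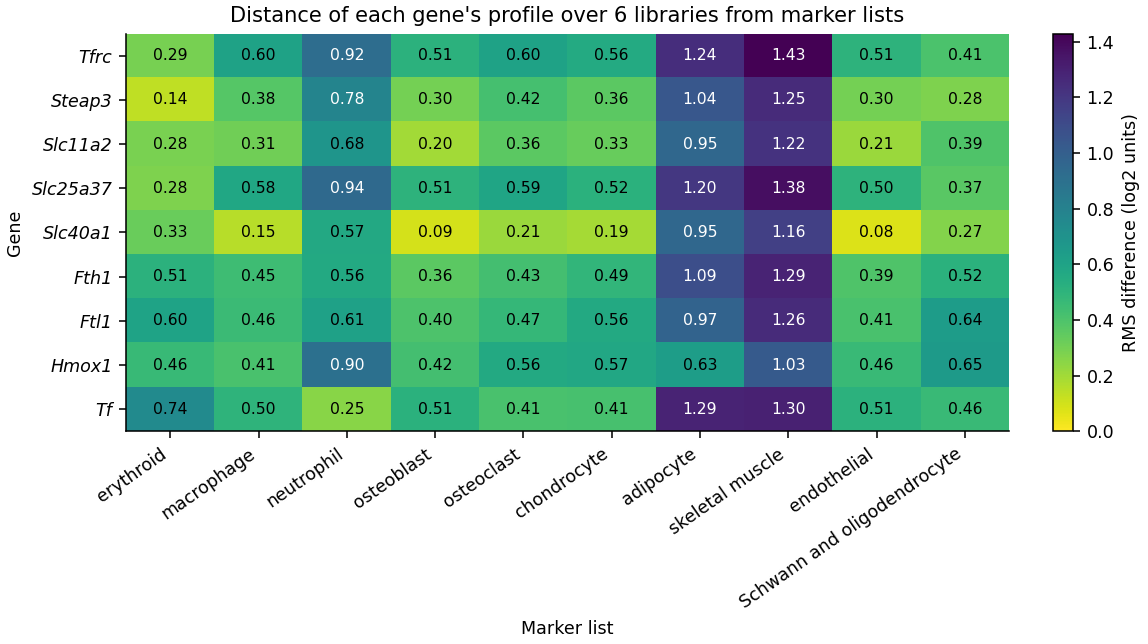
RMS difference in log2 units between the centred profile of each of the 9 genes (rows) and the mean centred profile of 10 marker lists (columns), over 6 libraries, with yellow for near and dark for far. Steap3, Slc25a37 and Tfrc have their smallest value in the erythroid column, Tf in the neutrophil column.

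Among 11604 expressed genes with a name, the gene nearest to Tfrc in profile was another member, Slc25a37 (RMS 0.16), followed by Fzd5 (0.17) and Xpo7 (0.17). Slc25a37 was nearer still to Art4 (0.07), Trak2 (0.08) and LOC100911674 (0.10). Steap3 lay nearest to Pabpc4 (0.04), Cep76 (0.05) and Cdc6 (0.06), and Slc11a2 to LOC100912566 (0.08), Rcc1 (0.09) and Dlx3 (0.09). The ratio of Tfrc to Slc25a37 within a library, which no scaling factor changes, ran from 0.798 in S12 to 1.11 in S10. On the log2 scale that ratio spanned 0.47, against 1.99 for Tfrc and 2.13 for Slc25a37 themselves. The 2 rows differ in length, however (5229 bases for Tfrc and 1720 for Slc25a37, as implied by counts and FPKM). Length correction left Tfrc a range of 1.28 (S20 over S23) and Slc25a37 a range of 2.05 (S20 over S10). The narrow ratio therefore holds for the uncorrected values only.

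In the deposited values the ferritin genes were among the 4 members with the narrowest ranges, and heavy chain transcripts exceeded light chain transcripts in 6 of 6 libraries. Fth1, which encodes the chain with the ferroxidase centre, had 1703 FPKM in S21, 1673 in S10, 1601 in S20, 1501 in S13, 1208 in S23 and 1144 in S12. S12 and S23 were low and the other 4 close together. Ftl1, the light chain, had 114 FPKM in S10 and between 63.0 (S23) and 79.2 (S21) in the other 5 libraries. Without S10 its range was 0.32. The ratio of Ftl1 to Fth1 lay between 0.0465 in S21 and 0.0684 in S10, so Fth1 was 14.6 to 21.5 times as high. Under TMM both were highest in S10, at 2192 FPKM for Fth1 and 150 FPKM for Ftl1.

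The Ftl1 level carries a limit of its own. RefSeq lists 27 ferritin copies in the rat genome, 21 of Ftl1 and 6 of Fth1, of which 20 are pseudogenes, and 1 of the 27 had a row by name. That row, Ftl1l2, had a median of 13 FPKM and ranged from 11.2 to 15.3 FPKM. Adding it to Ftl1 moved the median log2 difference from Fth1 from -4.25 to -4.00. How the counting treated reads that fit several copies is stated in none of the sources used here, so the level of Ftl1, and its ratio to Fth1, are uncertain. Fth1 lay nearest in profile to Cmc4 (RMS 0.06), Pttg1 (0.06) and Gins1 (0.09), and Ftl1 to Fam174a (0.04), Mis18a (0.08) and Bola3 (0.09).

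After TMM scaling ferroportin transcripts had the narrowest range of the 9. Slc40a1 had 36.4 FPKM in S10, a median of 46.1 and 60.7 FPKM in S12, the highest. TMM narrowed the range from 0.72 to 0.31, with values from 42.0 (S23) to 52.5 FPKM (S12). The name has a second row (ENSRNOG00000049995), also lowest in S10 with 26.5 FPKM and highest in S12 with 52.8 FPKM. The row used here, ENSRNOG00000003872, is the one with the higher median. Profiles nearest to it were those of Recql4 (RMS 0.03), RGD1563680 (0.03) and Thbd (0.04).

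Hmox1 followed a different order from the uptake genes. It had 199 FPKM in S12, 146 in S10, 142 in S20, 123 in S13, 94.0 in S21 and 68.8 in S23. S12 was 2.89-fold above S23, and S21 and S23 were the 2 low libraries. TMM moved the highest value from S12 (172 FPKM) to S10 (191 FPKM), with S23 still the lowest (63.5 FPKM). S23 was the lowest library for 3 of the 9 genes (Hmox1, Ftl1 and Slc11a2) and for 8.37% of expressed genes, and S12 the highest for Hmox1 and Slc40a1 and for 26.6%. Hmox2, the constitutive heme oxygenase, was flat beside it, from 9.56 to 14.4 FPKM. Of 10 macrophage markers 8 reached a median of 1 FPKM, 6 of those were highest in S12, and their summed level was 435 FPKM in S20 and 670 in S12. Marco had 0 counts in all 6 libraries and Vsig4 a median of 0.727 FPKM. S12 was also the highest library for the summed level of the osteoblast (1675 FPKM in S23 to 2284 in S12), adipocyte (285 FPKM in S23 to 813 in S12), skeletal muscle (12.6 in S20 to 126 in S12) and chondrocyte lists (108 in S10 to 236 in S12). The part of macrophage, osteoblast, adipocyte, muscle or cartilage RNA in the Hmox1 and Slc40a1 values was not tested. The nearest profiles were those of RGD1565355 (RMS 0.15), Marcksl1 (0.15) and Btnl9 (0.19).

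**Figure D4:**
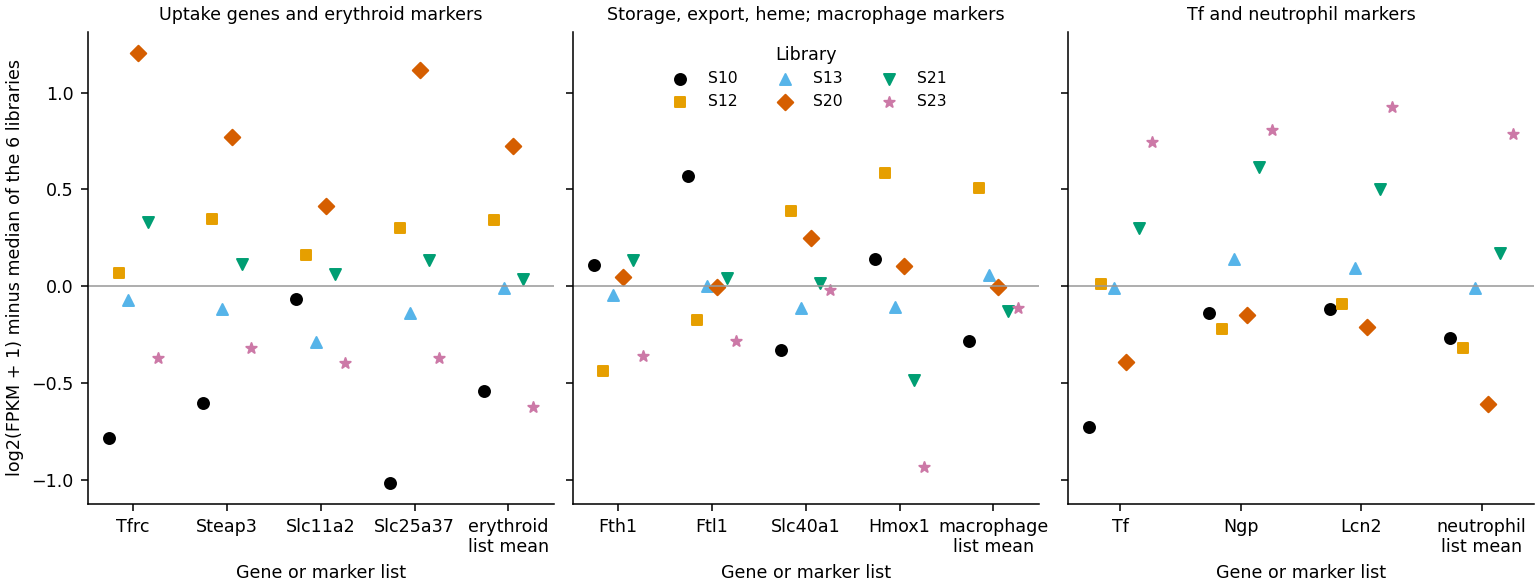
Centred log2(FPKM + 1) of the iron genes and the mean of a marker list, 1 point per library, in 3 panels: uptake genes with the erythroid list, storage, export and heme genes with the macrophage list, and Tf with Ngp, Lcn2 and the neutrophil list. S20 is highest throughout the left panel and S23 throughout the right one.

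Tf was the second most abundant member and had its own pattern. It had 2178 FPKM in S23, 1600 in S21, 1309 in S12, 1289 in S13, 992 in S20 and 784 in S10, or 79751 to 262197 counts. S23 was 2.78-fold above S10. TMM kept S23 as highest (2013 FPKM) and moved the lowest value to S20 (886 FPKM). Without S23 the range was 1.03. Of expressed genes 24% were highest in S23 and 13.8% were also lowest in S10.

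Tf is best known as a liver gene, and 5 of 6 liver markers missed the expression limit here. Of 6 hepatocyte markers Alb, Ttr, Fgb and Apob had 0 counts in all 6 libraries, which allows up to 3 counts per library for each. Apoa1 stayed at or under 0.455 FPKM, and the sum of all 6 was 1.31 to 2.93 FPKM. Most of that sum was Serpina1, which was expressed with a median of 2.02 FPKM. The neutrophil list, in contrast, was highest in S23 for 9 of its 9 expressed members, with a summed level of 17639 FPKM in S20 and 75041 FPKM in S23. In S10, where Tf was lowest, that sum was 43199 FPKM, well above its lowest level. The mean profile of the osteoclast list was highest in S23 and lowest in S10, as Tf was, and lay at 0.41 from Tf. The part of either list in the Tf values was not tested. The 3 profiles nearest to Tf were those of Cyp4f18 (RMS 0.08), Napsa (0.09) and Cd300lb (0.09).

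Ltf, which encodes lactotransferrin, the relative of transferrin stored in neutrophil granules, was close to absent. It had 0 counts in S12 and at most 5 counts in any library, while other genes of the same granules were abundant. Ngp had 1867 to 3809 FPKM, Camp (cathelicidin) 1046 to 4244 FPKM and Lcn2, which encodes a siderophore-binding lipocalin, 775 to 1704 FPKM. Tf was 0.396 (S10) to 0.701 (S12) times Ngp. Whether reads of 1 transferrin family gene were counted under the other was not tested.

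Ratios within a library do not depend on its scaling factor, and they set uptake, storage and export against each other. The ratio of Tfrc to Fth1 was 0.195 in S20, 0.124 in S12, 0.0999 in S21, 0.0864 in S23, 0.0858 in S13 and 0.0467 in S10. S20 and S10 were the extremes, and the median was 0.0931. After length correction the spread of this difference fell from 2.05 to 0.78 log2 units, with the same extremes. Slc40a1 was 0.176 times Tfrc in S20 and 0.274 to 0.466 times in the other libraries, so the exporter was below the receptor in 6 of 6. Hmox1 exceeded Slc40a1 in 6 of 6 libraries, by 1.51 times in S23 and 4.0 times in S10. With both Slc40a1 rows summed this held in 5 of 6, and in S23 Hmox1 was 0.791 times Slc40a1. Length correction moved the highest library from S10 to S12 for both Slc40a1 to Tfrc and Hmox1 to Slc40a1. Their spreads changed little, from 1.41 to 1.27 and from 1.38 to 1.33 log2 units, and their lowest libraries, S20 and S23, stayed. Tf was 3.17 times Tfrc in S20 and 20.9 times in S23, with 9.23 to 10 in the other 4.

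**Figure D5:**
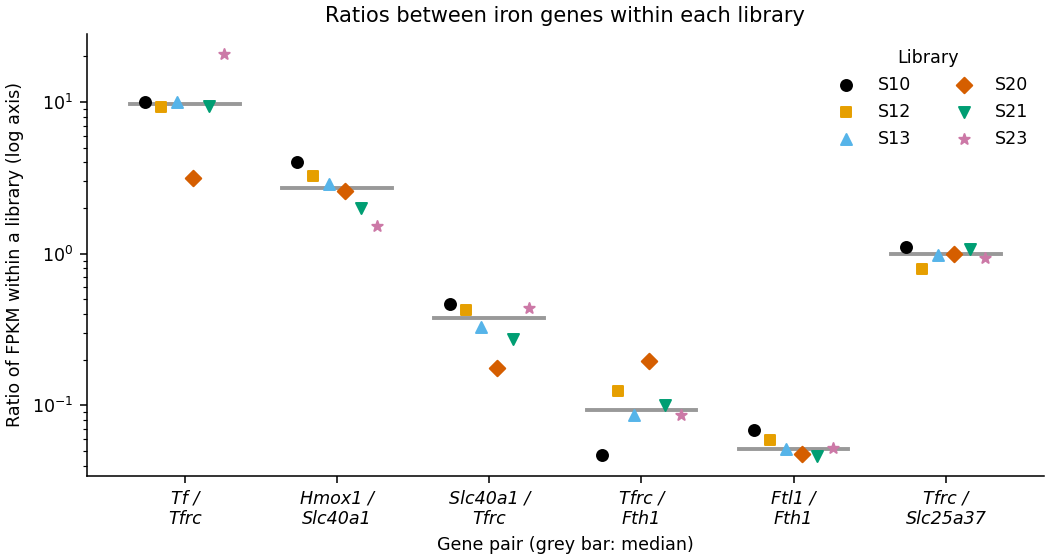
Ratio of FPKM of 6 gene pairs within each library on a log axis, with the median as a grey bar. S20 is lowest for Tf to Tfrc and Slc40a1 to Tfrc and highest for Tfrc to Fth1, and the ratio of Tfrc to Slc25a37 stays near 1 in all 6 libraries.

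The wider iron list held 55 genes beside the 9. A row was found for 54 (Pcbp1 had none), 45 of these reached a median of 1 FPKM, and 21 of the 45 had a range of at least 1 log2 unit. Of all expressed genes 36.6% were wide. Without S10 the number was 12 of 45 (13.6% of all genes), and under TMM 17 of 45 (29.4%). S10 was the lowest library for 27 of the 45, a share close to the 60.1% of all genes. The group counts below stand against the same 36.6% and 60.1%, and the groups are small. The median range of the 45 was 0.93.

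In the uptake group 8 of 10 genes were expressed and 2 were wide. Lcn2 (median 898 FPKM), Steap4, a second ferrireductase (23.7 FPKM), and Slc39a8, a metal ion importer (12.5 FPKM), had the highest medians. Tfr2, the second transferrin receptor, ranged from 5.90 FPKM in S23 to 13.1 in S20 and was wide (1.03). Tfrc was 11.1 (S12) to 23.9 (S20) times Tfr2. In the storage group Ncoa4, which delivers ferritin to lysosomes, ranged from 66.5 FPKM in S10 to 171 in S20 (1.35), and the iron chaperone gene Pcbp2 had a median of 103 FPKM. Ftmt, mitochondrial ferritin, had 0 counts in all 6 libraries.

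Export and systemic control held 12 genes, 8 expressed and 5 of these wide. Hamp, which encodes the liver hormone hepcidin that closes ferroportin, had 0 to 7 counts per library. Erfe, the erythroblast hormone that lowers hepcidin, ranged from 0.657 FPKM (30 counts) in S10 to 8.39 FPKM in S20 a range of 2.5 log2 units, second of the 45 genes to Hp. The ferroxidase genes Cp (10.2 FPKM in S10 to 24.4 in S12) and Heph (1.16 in S21 to 5.80 in S12) were wide too, as were Bmp6 (0.315 in S10 to 2.74 in S12) and Smad4 (4.95 in S10 to 15.2 in S12) of the BMP pathway. Hephl1 had 0 counts in all 6 libraries and Tmprss6 at most 5.

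All 6 sensors of iron and heme were expressed, and 3 were wide, each lowest in S10. Bach1, the heme-sensing repressor of Hmox1, had 2.40 FPKM in S10 and 17.5 in S20 (2.45). The iron regulatory protein genes Aco1 (2.55 in S10 to 8.0 in S12) and Ireb2 (4.18 in S10 to 13.9 in S20) were the others. Fbxl5, the ligase subunit that removes the Ireb2 product, had a median of 45.2 FPKM, Nfe2l2 (NRF2) 26.9 FPKM and its inhibitor Keap1 13.7 FPKM.

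Of 11 genes of mitochondrial iron use, 11 were expressed and 5 were wide. The highest medians were those of Fech, which inserts iron into heme (174 FPKM), Isca1 (158 FPKM) and Glrx5 (114 FPKM), both of iron-sulfur cluster assembly. Fech (103 FPKM in S23 to 270 in S20), Abcb10, a partner of mitoferrin (25.1 in S10 to 88.7 in S20), and Abcb6 (9.49 in S23 to 21.8 in S20) were wide and highest in S20. Glrx5 was wide in another order, with 83.8 FPKM in S23 and 191 in S10. Slc25a28, the second mitoferrin, had a median of 24.1 FPKM and a range of 0.47, and Slc25a37 was 2.93 (S10) to 12.9 (S20) times as high.

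Of 12 genes of heme and hemoglobin recycling 10 were expressed and 5 were wide. Hp, haptoglobin, which binds free hemoglobin, had the widest range of the 45 (2.68), from 134 FPKM in S13 to 864 in S23. The others were Cd163, the macrophage scavenger receptor (6.80 FPKM in S10 to 24.7 in S12), Lrp1 (3.36 in S10 to 9.83 in S12), and 2 transporters described as heme exporters, Flvcr1 (0.396 in S10 to 2.12 in S20) and Abcg2 (3.06 in S23 to 8.62 in S20). Hpx, hemopexin, which binds free heme, missed the expression limit with a median of 0.975 FPKM, having 0 counts in S10 and 5.09 FPKM in S13. The biliverdin reductase genes Blvrb (median 108 FPKM) and Blvra (50.2 FPKM) had the next highest medians after Hp. Slc48a1, the heme transporter of the phagolysosome, had 33.3 FPKM, and Spic, the transcription factor of red pulp and marrow macrophages, 10.1 FPKM, with ranges of 0.76 and 0.75.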

How the data were processed

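Each of 6 libraries has a count and an FPKM column. RNeasy extraction and SMARTER libraries are stated per the labels' protocols. The deposited count of a gene is a whole number that was not normalized. The authors also gave FPKM, as the column headers name it, and FPKM sums differ between libraries. The sources used here name no aligner or counter. The builds GRCm38 and mm10 in the submitters' processing notes are of mouse, while row IDs are of rat, so no coordinates of the table's genes are given. Promoter coordinates are those of RefSeq GRCr8.

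Of 30610 rows, 10 without values were left out, and 8550 unnamed loci entered only library totals, sums and the TMM and median-ratio factors. Where a name had 2 rows, the higher median FPKM was used. Values were put on log2(FPKM + 1). Labels give no group, so no test was run. The members and lists were chosen with earlier results of these data known. Named genes were the members, up to 3 list genes per group by median, list genes with a wide range or 0 counts, the 3 nearest profiles of each member, and leading markers. Hmox2, Slc25a28, Keap1, Spic, Slc48a1, Hamp, Hpx, Tmprss6, Ltf and the markers Slc4a1, Vsig4 and Marco were named after their values were seen. Some list genes are counted but not reported here by name. Cell type markers stood in 11 lists, and the hepatocyte list, with 1 expressed gene, gave no profile. Alternatives were a pseudocount of 0.1, no minimum median, TMM factors (edgeR 4.0.16), median-ratio factors, a common FPKM sum, a sum without the 4 globin rows, length correction in 20 bins, leaving out each library, and summed rows. CPM in place of FPKM, and length correction of ratios, were added after seeing the data. The range call and the median-ratio factors were tested on simulated data, with a smaller pseudocount and a fixed scatter between libraries. Nearest profiles, list distances, length correction and ratios had no such test.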

Additional observations from a re-analysis of the deposited data

How the results depend on the processing

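Of 217 recomputed values of 15 results, 199 moved by less than a limit, 18 moved by more and 0 changed sign. The limit was the standard deviation over the libraries in the deposited values or, for the 2 counts, a factor of 1.5. Many of the 199 had little or no room to move. Dropping the minimum median changed no member range or difference. Summed rows could change only values that involve Slc40a1 or Ftl1. Differences between 2 genes depend on scaling factors only through the pseudocount, and only these differences could change sign. TMM and median-ratio scaling gave ranges of 0.31 and 0.33 for Slc40a1, 1.15 and 1.15 for Fth1, and 1.35 and 1.37 for Ftl1. With a common FPKM sum Slc40a1 had 1.04 and Ftl1 0.50, and with the sum without globin rows Slc11a2 had 1.20. Length correction gave 1.28 for Tfrc and 0.22 for Slc40a1, and took Steap3 to 0.93. It left 4 of 9 genes wide, against 19.8% of expressed genes. Summed rows moved the median difference of Ftl1 minus Fth1 to -4.00, of Slc40a1 minus Tfrc to -0.56 (from -1.39) and of Hmox1 minus Slc40a1 to 0.60 (from 1.43). The summed ferroportin level adds FPKM of 2 rows of unequal length and may count a transcript more than once. Leaving out 1 library gave 12 to 21 wide genes of the iron list and 4 to 5 wide members, against 13.6% to 36.2% of expressed genes. Ranges were then 1.11 to 1.99 for Tfrc, 1.32 to 2.13 for Slc25a37 and 0.32 to 0.85 for Ftl1. The shift of the median expressed gene and the fewer libraries are built into these alternatives, and other causes were not tested. Tfrc, Slc25a37, Hmox1 and Tf were wide under all 15 alternatives and Steap3 under 13. The nearest list was kept in 15 of 15 for Tfrc, Steap3 and Tf, 14 for Slc25a37, 13 for Fth1, 12 for Ftl1 and Slc11a2, 11 for Hmox1 and 10 for Slc40a1. Dropping the minimum median could not change the nearest list, nor could summed rows for genes other than Slc40a1 and Ftl1. Low genes such as Hamp and Ltf are limited by depth. No paired analysis was possible because the labels give no groups.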
